A study of Homo sapiens with 9 samples.

Results

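Mitochondrially encoded genes are the genes carried by the circular mitochondrial chromosome, and in the count table they are the 37 genes whose symbols start with MT-, namely 13 protein genes, 2 rRNA genes and 22 tRNA genes. Those with at least 10 counts in at least 1 library were kept. That left all 13 protein genes, both rRNA genes and 12 tRNA genes, 27 of the 59609 genes in the table. The other 10 tRNA genes had at most 8 counts in any library. Of the 27 genes, 23 passed the filter on low counts and were tested (13 protein, 2 rRNA and 8 tRNA genes), and 4 tRNA genes were kept but not tested.

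The cells were SUIT2, a human pancreatic cancer line, and RNA-seq was made from total RNA. The groups were cells treated with 100 U/mL human IFNβ, a type I interferon, for 24 h, cells treated with the same dose for 6 h, and control-treated cells, with 3 libraries each. All cells were seeded at 500000 per well of 6-well plates and grown for 24 h before fresh medium was given. The labels give no time for the control, so time in IFNβ and time in culture cannot be told apart. They also do not say that libraries of a group came from separate cultures. The p-values therefore rest on a spread between libraries that may be technical only. Libraries held 25270387 to 40384407 estimated counts at 24 h, 16799278 to 37420457 at 6 h and 15101734 to 19632741 in control. The 7 ductal epithelial markers summed to 5354 to 5480 CPM (a level, counts scaled to the library's size and TMM factor) at 24 h, 5459 to 5765 at 6 h and 4834 to 4897 in control, whereas with library size only the 24 h sums (5725 to 5866) were above those at 6 h (5027 to 5326). The 12 markers of leukocytes, fibroblasts, endothelium and acinar cells summed to 3.71 to 4.29, 2.95 to 3.05 and 2.21 to 2.97 CPM in the 24 h, 6 h and control groups, with PTPRC, CD3E, DCN and CPA1 at 0 throughout.

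The mitochondrial chromosome is transcribed in long RNAs that run over many genes, from a promoter on each strand. The long RNAs are cut into shorter RNAs largely where tRNAs lie between the other genes. The levels of neighbouring messages therefore depend on both transcription and RNA stability. The protein genes encode subunits of the respiratory chain and ATP synthase: 7 belong to complex I (NADH dehydrogenase), 1 to complex III (cytochrome bc1), 3 to complex IV (cytochrome c oxidase) and 2 to complex V (ATP synthase). All other subunits of these complexes, and the polymerase, the RNA-processing enzymes and the decay enzymes, are imported products of nuclear genes. The rRNAs and tRNAs serve the ribosomes of the organelle itself.

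A few stretches of the chromosome show where neighbouring members share bases, so that reads there could fall to either gene, and where the rRNAs adjoin tRNAs. They are given on the plus strand, 5′ to 3′, from GENCODE release 29 transcripts (GRCh38, the hg38 build named in the labels). In the end of MT-ATP8, at chrM:8483-8572, capitals mark the 46 bases that also open MT-ATP6. In the end of MT-ND4L, at chrM:10727-10766, capitals mark the 7 bases that also open MT-ND4. At chrM:1572-1700 capitals mark MT-TV, the valine tRNA between MT-RNR1 and MT-RNR2, and at chrM:3200-3304 they mark MT-TL1, a leucine tRNA that follows MT-RNR2 and ends 2 bases before MT-ND1.
MT-ATP8 into MT-ATP6: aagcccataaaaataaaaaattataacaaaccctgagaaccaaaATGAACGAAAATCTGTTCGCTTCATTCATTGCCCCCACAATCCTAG
MT-ND4L into MT-ND4: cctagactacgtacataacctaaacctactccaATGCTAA
MT-RNR1, MT-TV, MT-RNR2: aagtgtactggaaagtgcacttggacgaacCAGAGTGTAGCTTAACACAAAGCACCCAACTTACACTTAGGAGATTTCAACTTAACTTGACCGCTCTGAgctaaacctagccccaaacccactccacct
MT-RNR2 into MT-TL1: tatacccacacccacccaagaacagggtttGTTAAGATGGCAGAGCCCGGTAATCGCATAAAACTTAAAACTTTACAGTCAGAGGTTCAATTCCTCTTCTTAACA

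The protein genes took about the same share of every library, and the rRNA share was smaller at 24 h. The 13 protein genes made up 8.40% ± 0.245 of all counts at 24 h, 8.57% ± 0.148 at 6 h and 8.48% ± 0.219 in control (mean ± SD, n = 3 each), and the 3 groups overlapped. The 2 rRNA genes made up 1.08% ± 0.0628 at 24 h, 1.71% ± 0.121 at 6 h and 1.72% ± 0.0236 in control, and each 24 h library was below every library of the other groups. The kept tRNA genes made up 0.00140% ± 0.0001001 at 24 h, 0.00161% ± 0.000350 at 6 h and 0.00152% ± 0.0000765 in control, on average 465, 394 and 260 counts per library in these groups. In bulk RNA, fewer cells carrying a transcript and less of it per cell cannot be told apart.

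**Figure D1:**
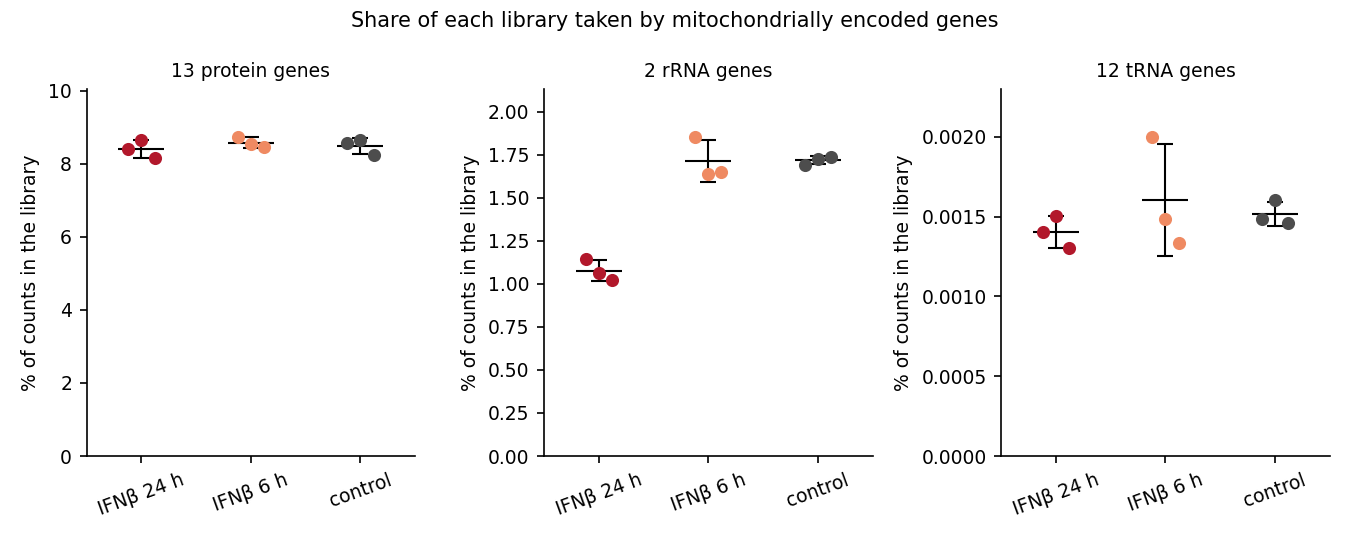
Share of all counts in each library (%) taken by the 13 protein genes, 2 rRNA genes and 12 tRNA genes at 24 h, at 6 h and in control. Points are libraries, and bars are the mean ± SD of 3. The rRNA share was 1.02% to 1.14% at 24 h, below all 6 other libraries, whereas the protein gene shares of the 3 groups overlapped.

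Levels differed widely between the members. Per kilobase of gene, MT-CO1, the catalytic core of complex IV, was highest, with 12600 ± 366.7 CPM per kb at 24 h, 16823 ± 144 at 6 h and 15079 ± 351 in control (TMM-scaled, SD, n = 3 each). MT-CO3 followed in control with 11774 ± 253 CPM per kb, and MT-ATP6, the proton channel subunit of complex V, with 11152 ± 332. MT-ND4 (9587 ± 273), MT-CO2 (9434 ± 349) and MT-RNR2, the large rRNA (9218 ± 103), lay within their spread of each other. MT-ND1 (5806 ± 249.9), MT-CYB (4954 ± 136) and MT-ND2 (4018 ± 180.1) came next, with MT-ND2 and MT-ND4L (3942 ± 59.4) within their spread. MT-ATP8 (3620 ± 135), MT-ND5 (2951 ± 68.7), MT-RNR1, the small rRNA (2690 ± 320), and MT-ND3 (2437 ± 19.7) were lower, and MT-ND6, the only protein gene transcribed from the light-strand promoter, was lowest with 682 ± 31.5 CPM per kb. The highest tRNA, MT-TL1, had 77.6 ± 6.72 CPM per kb in control.

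Of the rRNAs, both were lower at 24 h than in control. MT-RNR2, the large ribosomal RNA (chrM:1671-3229), had 9051, 8525 and 8076 CPM in the 24 h libraries, 16630, 15777 and 15801 in the 6 h libraries and 14399, 14514 and 14197 in the control libraries. Its 24 h libraries were the lowest of all, and its 6 h libraries lay above control. MT-RNR1, the small ribosomal RNA (chrM:648-1601), had 1681, 1439 and 1415 CPM at 24 h, 3550, 1948 and 2130 at 6 h and 2274, 2541 and 2883 in control. Its 6 h libraries spread over the whole range of the control libraries and beyond it on both sides.

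At 24 h against control the log2 fold change was -0.75 (SE 0.031) for MT-RNR2 and -0.76 (SE 0.16) for MT-RNR1, with adjusted p = 1.89e-11 and 9.93e-04 by the quasi-likelihood test of edgeR, adjusted after Benjamini and Hochberg over 16964 genes. In this comparison 25.3% of all tested genes were called lower. Against 6 h the values were -0.91 (SE 0.031) and -0.75 (SE 0.16), with 30.6% of all genes called lower. Both rRNAs stayed negative at 24 h in every scaling tried, but in the deposited normalized table (-0.31 and -0.32 against control) neither passed, with adjusted p = 0.179 and 0.115 by limma. At 6 h against control MT-RNR2 was higher by 0.16 (SE 0.031, adjusted p = 7.05e-04 by edgeR), against 17.5% of all genes called higher, and with library size only it stood at 0.021 and did not pass. MT-RNR1 stood at -0.014 (SE 0.16) and did not pass at 6 h, although without 6 h library 1 it was lower, with -0.32 (adjusted p = 0.00807 by edgeR).

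Set against the protein genes of the same library, which needs no scaling between libraries, the rRNAs gave 12.8 ± 0.712 counts per 100 protein gene counts at 24 h, 19.99 ± 1.08 at 6 h and 20.3 ± 0.714 in control (SD, n = 3 each). The 24 h libraries ran from 12.3 to 13.6 and did not overlap the others, and the 6 h and control libraries overlapped. Within the pair, MT-RNR1 had 17.7 ± 0.853 counts per 100 MT-RNR2 counts at 24 h, 15.7 ± 4.90 at 6 h and 17.9 ± 2.28 in control. These 3 groups overlapped, and the 6 h library 1 was highest of all with 21.3.

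**Figure D2:**
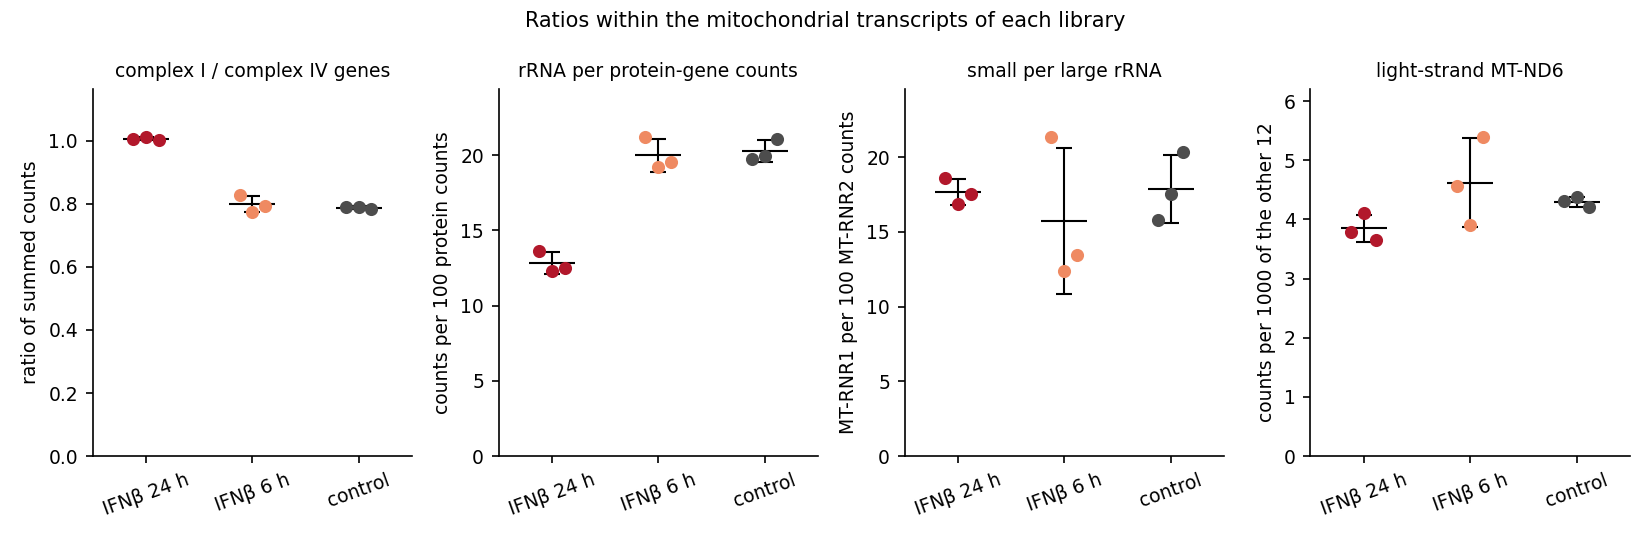
Ratios between mitochondrial transcripts within each library at 24 h, at 6 h and in control: summed complex I counts per complex IV count, rRNA counts per 100 protein gene counts, MT-RNR1 counts per 100 MT-RNR2 counts, and MT-ND6 counts per 1000 counts of the other 12 protein genes. Points are libraries and bars are the mean ± SD of 3. The first ratio was higher (1.00 to 1.01) and the second lower (12.3 to 13.6) in all 3 libraries at 24 h than in the other 6.

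RNAs without a poly(A) tail, which show how a library selected RNA, also varied between libraries. A list of 17 such RNAs, 14 of them with at least 10 counts in a library, summed to 486 to 747 CPM at 24 h, 116 to 581 at 6 h and 172 to 331 in control. RNU1-1 was at 0 in all libraries. RN7SL1, the RNA of the signal recognition particle, had 8374, 3056 and 4361 counts at 24 h, 206, 3001 and 3730 at 6 h and 1157, 799 and 433 in control. The 6 h library 1 was thus lowest in RN7SL1 and highest in MT-RNR1. Of the 10 tested genes of the list, 2 (RN7SL1 and RN7SL2) were higher, 1 lower and 7 without a call at 24 h against control. Over all genes 24.7% were higher and 25.3% lower in this comparison. The list's median was -0.047, and RN7SL2 alone held 20906, 9358 and 12503 counts at 24 h. The part of RNA selection in the rRNA values was not tested.

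Of the complex I genes at 24 h against control, 4 of 7 were higher, 1 lower and 2 without a call. In this comparison 24.7% of all tested genes were called higher and 25.3% lower. MT-ND3, a membrane subunit (chrM:10059-10404), had 1084, 1129 and 1084 CPM at 24 h, 1045, 993 and 902 at 6 h and 849, 844 and 836 in control. It was higher in every treated library than in any control library. Its log2 fold change at 24 h was 0.38 (SE 0.040), a 1.30-fold difference with adjusted p = 1.02e-06 by edgeR. MT-ND2, also a membrane subunit, had 4804, 4922 and 4658 CPM at 24 h, 4530, 4575 and 4539 at 6 h and 4282, 4309 and 3971 in control, and was higher by 0.20 (SE 0.027). MT-ND5, one of the proton-pumping subunits, was higher by 0.19 (SE 0.026), and MT-ND1, near the quinone-binding site, by 0.13 (SE 0.028). MT-ND4 and MT-ND4L, further membrane subunits read from overlapping frames, stood at 0.047 (SE 0.034) and 0.058 (SE 0.041) and did not pass, although both were called higher with library size only (0.12 and 0.14). The calls of MT-ND1, MT-ND2, MT-ND3 and MT-ND5 also held in that scaling and in the deposited table. However, these settings called 5498 and 8575 of all 16964 genes higher, with all-gene medians of 0.082 and 0.37.

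MT-ND6 (chrM:14149-14673) was the complex I gene that was lower, with 297, 330 and 276 CPM at 24 h, 432, 358 and 492 at 6 h and 362, 372 and 340 in control. All 24 h libraries were below the others, and of the 6 h libraries 1 lay within the control range and 2 above it. Its log2 fold change at 24 h was -0.25 (SE 0.086, adjusted p = 0.0245 by edgeR). That call was lost with library size only (-0.17), with DESeq2 (adjusted p = 0.116), in the deposited table (0.19) and without 24 h library 1 (adjusted p = 0.0656), 24 h library 3 (0.112), control library 1 (0.0668) or control library 2 (0.0927). Per 1000 counts of the other 12 protein genes MT-ND6 had 3.85 ± 0.231 counts at 24 h, 4.62 ± 0.750 at 6 h and 4.30 ± 0.0824 in control. Since no source used here states the strand setting, reads of MT-ND6 could not be told apart from those of RNA of the opposite strand.

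The genes of complexes III, IV and V were lower at 24 h than in control, 6 of 6, against 25.3% of all genes. In the deposited normalized table all 6 turned positive and none passed. Their values there, from 0.14 (MT-CO3) to 0.34 (MT-CO2), lay below the median of all genes, which had moved to 0.37. MT-CO3, a core subunit of cytochrome c oxidase (chrM:9207-9990), had 7508, 7686 and 7264 CPM at 24 h, 9938, 10170 and 9972 at 6 h and 9320, 9369 and 9003 in control. The 24 h libraries were lowest and the 6 h libraries highest, with no overlap of groups. Its log2 fold change was -0.30 (SE 0.020), 0.811 of the control level, with adjusted p = 7.48e-09 by edgeR.

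MT-CO1 had 19463, 19977 and 18847 CPM at 24 h, 26034, 26102 and 25688 at 6 h and 23377, 23720 and 22659 in control, and its log2 fold change at 24 h was -0.26 (SE 0.019). MT-CO2, which carries the copper centre that takes electrons from cytochrome c, had the smallest difference of the 6, with -0.095 (SE 0.026), and did not pass with library size only (-0.018). MT-CYB, the cytochrome b of complex III, stood at -0.23 (SE 0.031), MT-ATP8, a small subunit of ATP synthase, at -0.29 (SE 0.039) and MT-ATP6 at -0.15 (SE 0.028). The shared 46 bases of MT-ATP8 and MT-ATP6, shown above, could give reads to either gene, so these genes are not fully separate observations.

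**Figure D3:**
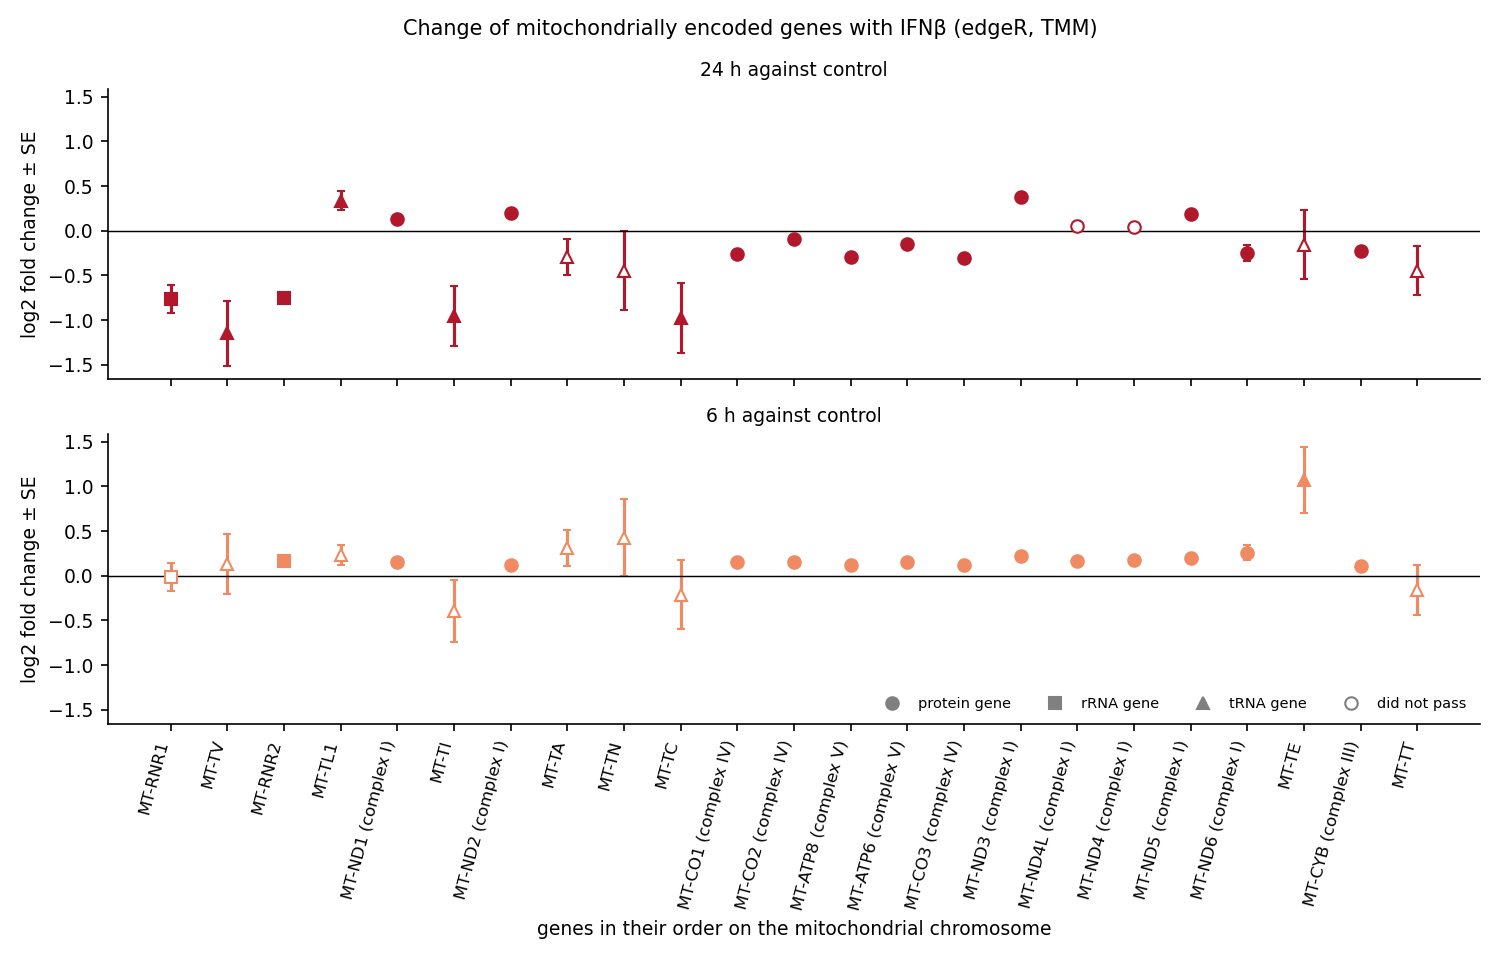
Log2 fold change ± SE of the 23 tested members at 24 h against control (upper panel) and at 6 h against control (lower panel), with genes in chromosome order, by edgeR with TMM scaling. Filled symbols passed at an adjusted p under 0.05. At 24 h the complex I genes ran from -0.25 to 0.38 and the genes of complexes III to V from -0.30 to -0.095. Those of complexes III to V turned positive in the deposited table, where the median of all genes was 0.37. At 6 h all 13 protein genes lay between 0.11 and 0.26. Of these, 4 turned negative with library size only, where the median of all genes was -0.14.

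The balance between complexes also differed at 24 h within a library, where no scaling enters. Summed complex I counts per complex IV count were 1.01 ± 0.00511 at 24 h, 0.800 ± 0.0264 at 6 h and 0.788 ± 0.00449 in control (SD, n = 3 each). The 3 libraries at 24 h ran from 1.00 to 1.01, all above the other 6, and the 6 h and control libraries overlapped. Complex I genes held 42.3% ± 0.0489 of the protein gene counts at 24 h, 37.1% ± 0.589 at 6 h and 36.7% ± 0.112 in control. Complex IV genes held 42.0% ± 0.172, 46.4% ± 0.793 and 46.6% ± 0.130 in the 24 h, 6 h and control groups.

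With the libraries scaled to the sum of the 13 protein genes, a setting added after the data were seen, the complex I genes other than MT-ND6 stood above the rest of the set at 24 h. Against control, 6 of 13 were then higher, 4 were lower and 3 did not pass, with 47.4% of all genes called under that scaling. The 6 were MT-ND3 (0.47, SE 0.042), MT-ND2 (0.29, SE 0.030), MT-ND5 (0.28, SE 0.029), MT-ND1 (0.22, SE 0.028), MT-ND4L (0.15, SE 0.040) and MT-ND4 (0.14, SE 0.027). The 4 were MT-CO3 (-0.21, SE 0.027), MT-ATP8 (-0.20, SE 0.038), MT-CO1 (-0.17, SE 0.022) and MT-CYB (-0.14, SE 0.029). MT-CO2 (-0.0024, SE 0.027), MT-ATP6 (-0.060, SE 0.026) and MT-ND6 (-0.16, SE 0.075) did not pass. Values on this scale are relative to the set, and the median of all genes moved to 0.10 under it.

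**Figure D4:**
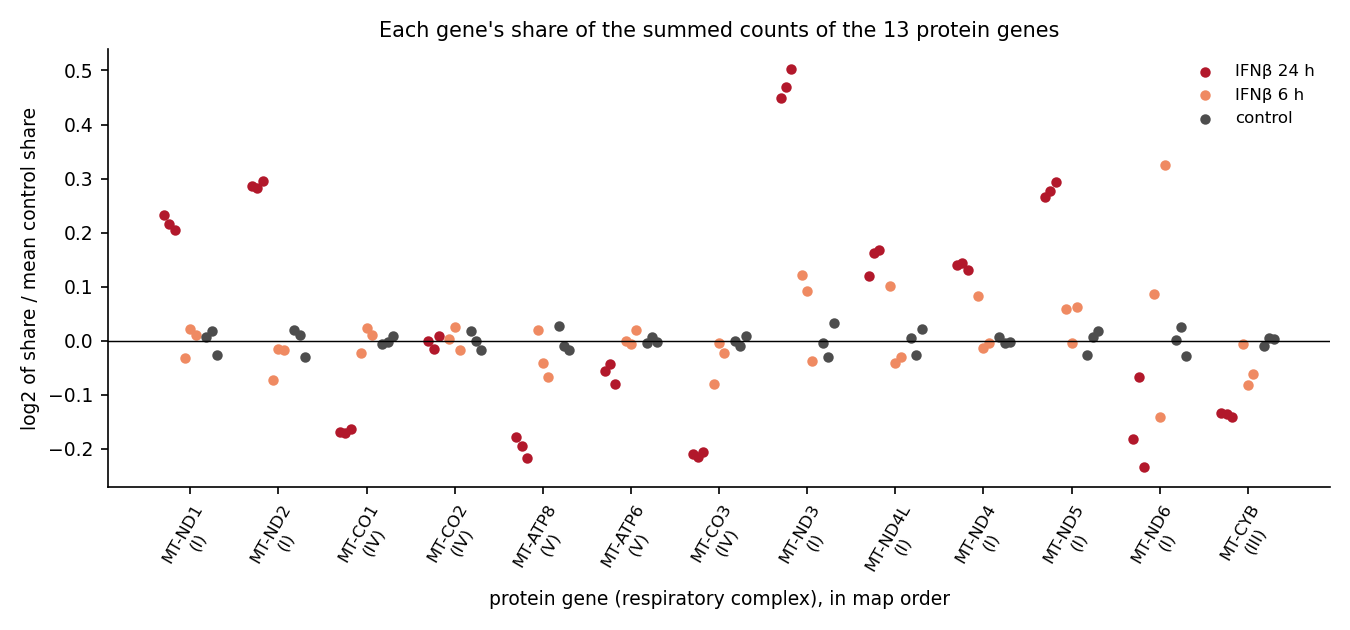
Log2 of each gene's share of the summed counts of the 13 protein genes, relative to its mean share in control, for the 9 libraries. Points are libraries, and genes are in chromosome order with their complex. The 24 h libraries lie above all control libraries for MT-ND1, MT-ND2, MT-ND3, MT-ND4L, MT-ND4 and MT-ND5 and below them for MT-CO1, MT-ATP8, MT-ATP6, MT-CO3, MT-CYB and MT-ND6, and for most genes the 6 h libraries lie near control.

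At 6 h the protein genes differed little among themselves. All 13 were called higher against control with TMM scaling, against 17.5% of all genes, with log2 fold changes from 0.11 (MT-CYB, SE 0.031) to 0.26 (MT-ND6, SE 0.086) and a median of 0.16, but the call rested on the scaling. With library size only 0 of 13 passed, and MT-ND2, MT-ATP8, MT-CO3 and MT-CYB turned to -0.020, -0.014, -0.020 and -0.034. In the deposited normalized table, likewise, 0 of 13 passed, with a median of 0.32. The median of all genes was -0.0053 with TMM, -0.14 when only library size was used and 0.13 in the deposited table, so the members' median exceeded it by 0.16, 0.16 and 0.19. Within the set, 0 of 13 differed from control when libraries were scaled to the 13 genes, with values from -0.049 to 0.10. That scaling centres the 13 genes near 0 by construction and moved the median of all genes to -0.16. The 43.8% of all genes called under it includes that shift, so the set cannot be compared with it. Without one library at a time 10 to 13 of the 13 were called higher. MT-ND6, MT-ATP8 and MT-CYB each lost the call in at least 1 such fit, and all 3 lost it without 6 h library 1 (adjusted p = 0.0622, 0.0842 and 0.0607 by edgeR) and without control library 3 (0.108, 0.0844 and 0.0524).

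**Figure D5:**
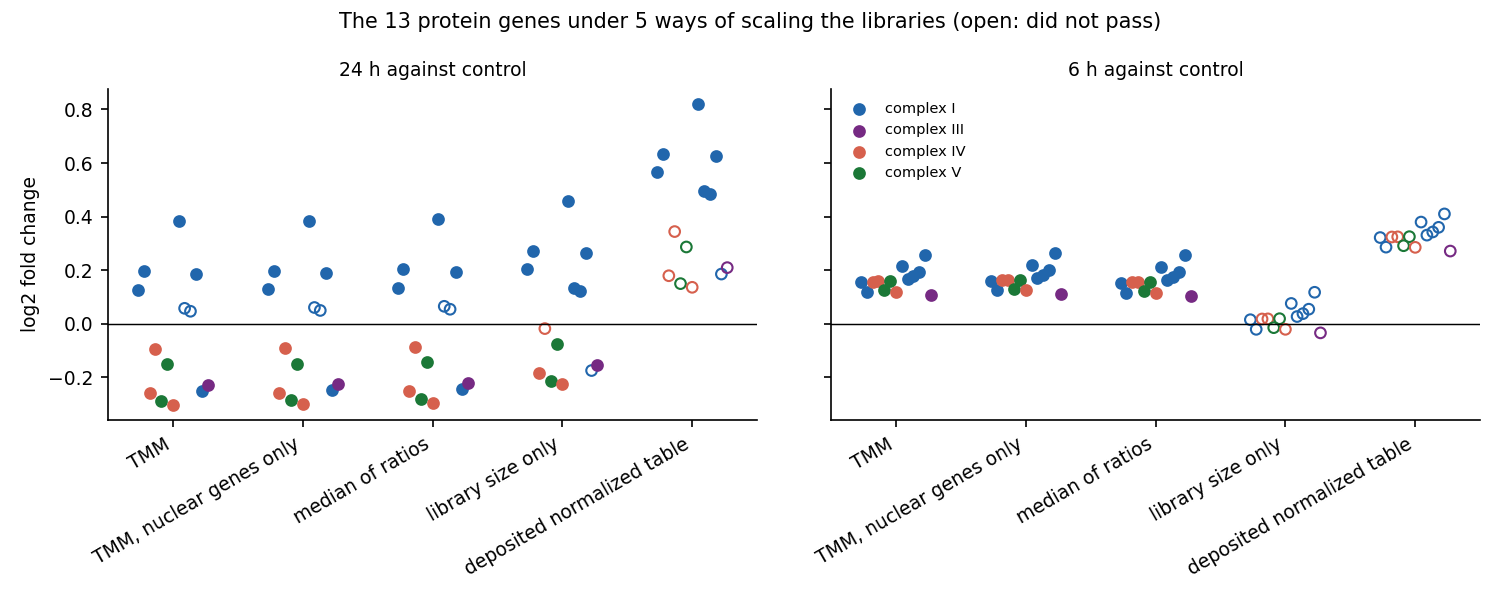
Log2 fold changes of the 13 protein genes at 24 h (left) and at 6 h (right) against control under 5 ways of scaling the libraries, coloured by respiratory complex, with open symbols for genes that did not pass. At 24 h complex I genes other than MT-ND6 lie above the others in each scaling. Complexes III to V turn positive in the deposited table but lie below its median of all genes (0.37). At 6 h the 13 genes lie together, above 0 with TMM and around 0 with library size only.

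TMM scaling factors were 1.07 to 1.08 at 24 h, 0.918 to 0.924 at 6 h and 1.01 to 1.02 in control, so the factors themselves differed by group. The deposited normalized values summed to 1085360 to 1113630 per library at 24 h, 845104 to 1260040 at 6 h and 813335 to 935017 in control. Their sums thus differed between libraries of a group, most at 6 h.

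Between the times, 24 h against 6 h, 2 of the 13 protein genes were higher, 9 lower and 2 without a call, against 26.6% of all genes higher, 30.6% lower and 57.2% in either direction. This split also depended on scaling. With library size only 6 were higher and 6 lower, beside 8220 higher and 2477 lower of all 16964 genes. The deposited table gave 1 higher and 0 lower, beside 4874 higher and 975 lower of all genes. MT-ND3 was higher in each (0.17, SE 0.040, with TMM). MT-ND2 stood at 0.076 (SE 0.027), a call lost without 24 h library 1 (adjusted p = 0.0728), 24 h library 2 (0.132) or 6 h library 1 (0.0858), and in the deposited table (0.141). Lower with TMM were MT-ND6 (-0.51, SE 0.085), MT-CO3 (-0.42, SE 0.020), MT-CO1 (-0.42, SE 0.019), MT-ATP8 (-0.41, SE 0.039), MT-CYB (-0.34, SE 0.031), MT-ATP6 (-0.31, SE 0.028) and MT-CO2 (-0.25, SE 0.026). MT-ND4 (-0.13, SE 0.034) and MT-ND4L (-0.11, SE 0.041) were also lower but turned positive in the deposited table (0.14 and 0.17) and when scaled by library size only (0.086 and 0.11), and MT-ND4L lost its call without 6 h library 1 (-0.050, adjusted p = 0.165), 24 h library 1 (0.0984) or 24 h library 3 (0.101). MT-ND1 and MT-ND5 did not pass at -0.029 and -0.0077, and both were called higher with library size only, with 0.19 and 0.21.

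The tRNAs were barely sampled, and whether their counts came from mature tRNAs or from longer precursors was not tested. MT-TL1 was the deepest, with 313, 224 and 247 counts at 24 h, 97, 155 and 242 at 6 h and 89, 126 and 89 in control. In TMM-scaled CPM it had 7.27, 8.29 and 6.70 at 24 h, 6.29, 7.16 and 7.02 at 6 h and 5.33, 6.34 and 5.80 in control, and the 24 h libraries were above every control library. It was higher at 24 h by 0.34 (SE 0.11, adjusted p = 0.0198 by edgeR), while MT-RNR2 immediately before it was lower and MT-ND1 immediately after it was higher. That call was lost without 24 h library 2 (adjusted p = 0.0823), control library 1 (0.0934) or control library 3 (0.0507) and with DESeq2 (0.0582).

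Of 8 tested tRNA genes at 24 h against control, 1 was higher, 3 lower and 4 uncalled, against 24.7% higher and 25.3% lower of all genes. MT-TV, between the rRNAs, had 19, 14 and 11 counts at 24 h, 22, 12 and 38 at 6 h and 16, 20 and 12 in control, in libraries that were deeper at 24 h. Its log2 fold change was -1.15 (SE 0.36), a call lost without 24 h library 3 or control library 2 (adjusted p = 0.0676 and 0.0643) and in the deposited table (-0.27, 0.118). MT-TI, the isoleucine tRNA (-0.95, SE 0.34), and MT-TC, the cysteine tRNA (-0.98, SE 0.39), were lower, and MT-TI lost its call in 5 and MT-TC in 6 of the 9 fits without 1 library, with adjusted p up to 0.130 and 0.244. With DESeq2 (adjusted p = 0.0782 and 0.104) and in the deposited table (0.207 and 0.249) neither passed. MT-TC, at an adjusted p = 0.0495 by edgeR, also lost its call with median-of-ratios scaling (0.0516), nuclear genes only (0.0501), library size only (0.0663), the 13 protein genes as the scale (0.0604) and thinned counts (0.146). MT-TA, MT-TN, MT-TE and MT-TT, the alanine, asparagine, glutamate and threonine tRNAs, stood at -0.29, -0.45, -0.16 and -0.45 and did not pass.

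At 6 h against control, 1 of 8 tRNA genes was higher and 7 did not pass, against 17.5% of all genes higher and 15.4% lower. MT-TE had 40, 15 and 29 counts at 24 h, 48, 33 and 40 at 6 h and 15, 20 and 10 in control. It was higher at 6 h by 1.07 (SE 0.37, adjusted p = 0.0377 by edgeR), a call lost without 6 h library 1 (0.62, adjusted p = 0.150) or any control library (0.0842, 0.0611 and 0.120 without libraries 1, 2 and 3), with library size only (0.0508) and with limma-voom (0.106). Against 6 h, MT-TE (-1.22, SE 0.33), MT-TV (-1.28, SE 0.34) and MT-TA (-0.60, SE 0.19) were lower at 24 h, against 30.6% of all genes, and the other 5 did not pass. MT-TA lost that call without 6 h library 1 (adjusted p = 0.0601), with library size only (0.0832), scaled to the 13 protein genes (0.101) and in the deposited table (0.251).

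Of the tRNAs kept but not tested, MT-TQ, the glutamine tRNA, had 1, 0 and 3 counts at 24 h, 3, 1 and 1 at 6 h and 7, 12 and 7 in control. Every control library was above every treated library although the treated libraries were on average deeper. However, MT-TQ met the rule for keeping a gene only through its 12 counts in control library 2. The rule thus favoured a high control for this gene, and the separation was not tested. MT-TS1, a serine tRNA, had 1, 5 and 6 counts at 24 h, 34, 8 and 1 at 6 h and 11, 2 and 4 in control. MT-TH, the histidine tRNA, and MT-TM, the methionine tRNA, had 2 to 11 counts in every library.

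Copies of mitochondrial genes in the nuclear chromosomes can take reads from the members. MTATP6P1 (chr1:633696-634376) held 5.90% to 8.34% as many counts as MT-ATP6, MTND2P28 (chr1:629640-630683) 2.84% to 3.57% as many as MT-ND2 and MTND4P12 0.966% to 1.10% as many as MT-ND4. The other 12 copies held under 0.2%. Adding the counts of the protein gene copies to their genes changed no call of a member. The copies of MT-RNR2 were not added, so its calls were not tested in this way.

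The nuclear genes that transcribe and maintain mitochondrial DNA numbered 19 in the list used. Of these, 3 were called higher and 6 lower at 24 h against control, and 3 higher and 3 lower at 6 h. Over all genes 24.7% were higher and 25.3% lower at 24 h, and 17.5% and 15.4% at 6 h. At 24 h the list's median was 0.016, against 0.0048 for all genes. The deposited table gave 11 higher and 0 lower, beside 8575 higher and 321 lower of all 16964 genes, with the all-gene median at 0.37. POLRMT, the RNA polymerase of mitochondria, averaged 48.9 ± 0.646 CPM at 24 h, 42.8 ± 0.564 at 6 h and 48.4 ± 3.46 in control (SD, n = 3 each). It was lower at 6 h, with -0.18 (SE 0.048), and did not pass at 24 h (0.022, SE 0.046), and in the deposited table it did not pass at 6 h but was higher at 24 h (0.45). TFAM, which packages mitochondrial DNA and starts its transcription, had 67.6 ± 2.34, 69.6 ± 2.89 and 72.7 ± 2.14 CPM at 24 h, at 6 h and in control, with -0.11 (SE 0.041, adjusted p = 0.0409 by edgeR) at 24 h, although in the deposited table it stood at 0.33. POLG, the catalytic subunit of the DNA polymerase, was lower at 24 h (-0.28, SE 0.037), but stood at 0.16 in the deposited table.

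Genes of mitochondrial RNA processing and decay gave 8 calls higher and 6 lower of 25 at 24 h against control, and 5 higher and 3 lower at 6 h, against 24.7% and 25.3% of all genes at 24 h and 17.5% and 15.4% at 6 h. PNPT1, the polynucleotide phosphorylase that degrades mitochondrial RNA and a known interferon-induced gene, averaged 134 ± 2.01 CPM at 24 h, 408 ± 4.55 at 6 h and 67.6 ± 1.29 in control. Its log2 fold change was 0.98 (SE 0.031) at 24 h and 2.59 (SE 0.031) at 6 h, and it was lower at 24 h than at 6 h, with -1.61 (SE 0.028). LRPPRC, which stabilises mitochondrial messages, had 356 ± 1.31, 354 ± 10.1 and 350.2 ± 2.54 CPM and passed in neither comparison with control (0.025 with SE 0.027 at 24 h and 0.018 with SE 0.028 at 6 h), though with library size only it was called lower at 6 h with -0.12. FASTKD1, a mitochondrial RNA-binding protein, was higher at 24 h (0.26, SE 0.070) and lower at 6 h (-0.25, SE 0.076), the second a call lost with DESeq2, with no filter, with thinned counts, in the deposited table and without 6 h library 2, control library 1 or control library 2. TRNT1, which adds the CCA end to tRNAs, was higher at 24 h (0.25, SE 0.070) and at 6 h (0.35, SE 0.072), the second not with pseudocount 1 in the deposited table or with the 13 protein genes as the scale. The most negative calls of the list at 24 h were GTPBP3, a tRNA-modifying protein of mitochondria (-0.33, SE 0.054), and PUS1, a pseudouridine synthase (-0.30, SE 0.045), although both turned positive and did not pass in the deposited table. GTPBP3 averaged 19.05 ± 0.375 CPM at 24 h, 21.2 ± 0.497 at 6 h and 24.1 ± 1.22 in control, and PUS1 37.9 ± 1.41, 49.2 ± 1.10 and 46.7 ± 1.99.

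Of the 11 genes that supply deoxynucleotides to mitochondrial DNA, 5 were called higher and 1 lower at 24 h, against 24.7% and 25.3% of all genes, and 2 higher and 2 lower at 6 h, against 17.5% and 15.4%. CMPK2, a nucleotide kinase of mitochondria induced by interferon, averaged 84.5 ± 2.86 CPM at 24 h, 346 ± 8.15 at 6 h and 1.51 ± 0.776 in control, and was higher at both times in all settings run. Of 10 tested regulators of mitochondrial gene programmes, 2 were called higher and 5 lower at 24 h, and 4 higher and 2 lower at 6 h, beside the same shares of all genes. NRF1, a transcription factor for nuclear respiratory genes, had 13.8 ± 0.641 CPM at 24 h, 23.2 ± 0.0272 at 6 h and 22.8 ± 0.925 in control, a log2 fold change of -0.71 (SE 0.057) at 24 h that did not pass in the deposited table (-0.27, adjusted p = 0.173 by limma). MYC, a growth-promoting transcription factor, had 127 ± 2.53, 283 ± 1.31 and 187 ± 1.68 CPM in the 24 h, 6 h and control groups.

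The nuclear partners of the complexes gave counts of their own. At 24 h against control, with 24.7% of all genes higher and 25.3% lower, 10 of 20 nuclear complex I genes were called higher and 2 lower (median 0.14). Of nuclear complex IV genes 7 of 10 were called higher and 0 lower (median 0.13), whereas all 3 mitochondrial genes of that complex were lower, other than in the deposited table. Of nuclear complex III genes 5 of 9 were called higher and 0 lower (median 0.12), and of nuclear complex V genes 10 of 15 higher and 1 lower (median 0.13). With library size only, 13, 7, 10 and 14 nuclear genes of complexes I, III, IV and V were higher at 24 h. Over all 16964 genes 5498 were higher in that scaling. On the deposited normalized values 18, 9, 10 and 14 were higher, beside 8575 of all genes. COX7B, an accessory subunit of complex IV, averaged 76.1 ± 1.27 CPM at 24 h, 62.4 ± 3.14 at 6 h and 55.9 ± 2.44 in control, with 0.45 (SE 0.043) at 24 h. ATP5MC1, a gene for the ring subunit of ATP synthase, stood at 0.42 (SE 0.041) and NDUFA9, an accessory subunit of complex I, at 0.35 (SE 0.045). At 6 h with TMM scaling, 5 of 20, 1 of 9, 2 of 10 and 4 of 15 nuclear genes of complexes I, III, IV and V were higher. Of them 0 were lower, while over all genes 17.5% were higher and 15.4% lower. With library size only 1, 0, 0 and 0 were higher and 5, 5, 3 and 8 lower. Of all 16964 genes 1669 were then higher and 6191 lower. The deposited table gave 1, 0, 0 and 0 higher and 0 lower, beside 1615 higher and 211 lower of all genes. Differences between the nuclear and mitochondrial members of a complex were not tested.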

How the data were processed

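RNA-seq libraries were made from total RNA of SUIT2 cells, per the labels, in 3 groups of 3. The submitters' processing notes name STAR 2.7.8a, Partek and the genome build hg38 with no role, and annotation, counting and strand settings were not given in the sources used here. Of the values, the deposited estimated counts per gene, which the authors did not scale, were whole in 77.1% to 82.2% of values (to within 1e-06) and were rounded to whole numbers first. The deposited normalized signal, per the file headers and values, is each count plus 0.0001 times 1 multiplier per library, and it served only as an alternative. All MT- genes matched GENCODE release 29 in start and strand, with the listed stop 1 base past its end. No rows without a gene name entered.

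Genes were tested with edgeR 4.0.16 (R 4.3.3) by the quasi-likelihood test in 1 fit of 9 libraries with 6 residual degrees of freedom and TMM factors. The low-count filter (filterByExpr, minimum count 10, minimum total 15) kept 16964 genes, and a Benjamini-Hochberg adjusted p under 0.05 over these genes was called. Members came from this fit and no p was adjusted over a list. SE is the absolute log2 fold change over the root of the F statistic. The fit was also run on simulated data for 24 h against control, in which 16260 of 16458 genes were unchanged. It called 62.0% of genes changed 1.25-fold, 93.88% of those changed 4-fold and 0.0492% of unchanged genes. Shifts of many genes at a time were not simulated. CPM are TMM-scaled unless library size only is named, and per-kilobase values divide by gene length. Total counts of 15101734 to 40384407 per library left at least 5219 counts on each protein and rRNA gene and at most 313 on a tRNA gene.

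Alternatives were median-of-ratios scaling, library size only, scaling on nuclear genes only, no filter and a minimum count of 50. Others were DESeq2 1.42.0, limma 3.58.1 (voom) and limma on the deposited normalized values with pseudocounts 1 and 0.1. Further ones were 2 groups per fit, the replicate block, each library left out and thinning to the smallest total. Adding nuclear copies of protein genes and a threshold of 0.01 were also tried. Scaling to the 13 protein genes was added after the data were seen. The members and lists were chosen with earlier results of these data known. Nuclear genes were named if among the 4 largest called changes of a list in a comparison, with POLRMT, TFAM, LRPPRC, PNPT1 and CMPK2 always eligible.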

Additional observations from a re-analysis of the deposited data

Results flagged for a closer look

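By edgeR's test of 24 h against 6 h, 16 of the 23 tested members differed between these groups, against 57.2% of all genes. Without a control for each time, time in IFNβ and time in culture cannot be told apart here. The log2 difference (24 h against 6 h) was -0.91 for MT-RNR2 and -0.75 for MT-RNR1, the rRNAs. For protein genes of complexes III to V it was -0.42 for MT-CO3, -0.42 for MT-CO1, -0.41 for MT-ATP8, -0.34 for MT-CYB, -0.31 for MT-ATP6 and -0.25 for MT-CO2. For complex I genes it was 0.17 for MT-ND3, 0.076 for MT-ND2, -0.11 for MT-ND4L, -0.13 for MT-ND4 and -0.51 for MT-ND6. For tRNAs it was -1.28 for MT-TV, -1.22 for MT-TE and -0.60 for MT-TA.

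The sign of MT-ND4 and MT-ND4L turned with the scaling, and no explanation was tested. Groups of 3 libraries were too small for a test of single outlying libraries.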

How the results depend on the processing

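The calls of MT-ND3, MT-ND2, MT-ND5 and MT-ND1 at 24 h against control passed in every alternative run. So did those of MT-RNR2, MT-RNR1 and MT-ND3 at 24 h against 6 h. The calls of MT-TV and MT-TE at 24 h against 6 h passed in every alternative that tested them. The minimum count of 50 left both untested. The number of protein genes higher at 6 h (13) became 0 with library size only, 0 on the deposited normalized values (either pseudocount) and 0 scaled to the 13 genes, and 10 to 13 without one library. Those lower at 24 h (7) became 0 in the deposited table and 4 scaled to the 13 genes. For 24 h against 6 h, those higher (2) became 6 with library size only, 6 scaled to the 13 genes, 1 in the deposited table, 1 at the threshold of 0.01 and 1 to 2 without one library, and those lower (9) became 0 in the deposited table. Over all genes, 5576 calls at 6 h became 1826 and 1854 in the deposited table (pseudocounts 1 and 0.1), and 9704 calls between the times became 5849 and 5636. Of all calls, 53.2% were higher at 6 h (21.2% with library size only, 88.4% in the deposited table, 20.3% scaled to the 13 genes), 49.4% at 24 h (64.1%, 96.4% and 67.8%) and 46.6% between the times (76.8%, 83.3% and 80.2%).

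Signs turned as follows, always with the median of all genes moving the same way. In the deposited table with either pseudocount, at 24 h against control, MT-CO1 was 0.18, MT-CO2 0.34, MT-CO3 0.14, MT-ATP8 0.15, MT-ATP6 0.29, MT-CYB 0.21 and MT-ND6 0.19, with TFAM at 0.33, POLG 0.16, PUS1 0.13 (0.14) and GTPBP3 0.098 (0.10), and against 6 h MT-CO2 was 0.020, MT-ND4 0.14, MT-ND4L 0.17 and GTPBP3 0.11. With library size only, at 6 h, MT-ND2 was -0.020, MT-ATP8 -0.014, MT-CO3 -0.020, MT-CYB -0.034 and LRPPRC -0.12, and at 24 h against 6 h MT-ND1 was 0.19, MT-ND4L 0.11, MT-ND4 0.086, MT-ND5 0.21, TFAM 0.17 and GTPBP3 0.065. Scaled to the 13 genes, at 6 h, MT-ND2 was -0.035, MT-ATP8 -0.029, MT-CO3 -0.035, MT-CYB -0.049 and LRPPRC -0.14, and at 24 h against 6 h MT-ND1 was 0.22, MT-ND4L 0.14, MT-ND4 0.12, MT-ND5 0.24, TFAM 0.20 and GTPBP3 0.093. The cause was not tested. A further 32 of 1638 member values changed sign without passing in either fit.

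Same-number libraries correlated from -0.059 to 0.021 in their deviations from the group mean (0 of 9 over 0.1). Whether they shared a culture or day is not in the labels and cannot be told from these values. With the replicate block 12 of 13 protein genes were higher at 6 h, 4 higher and 7 lower at 24 h, and 2 higher and 9 lower between the times, and all genes gave 5149, 8132 and 9393 calls. MT-TC at 24 h lost its call under the block. Depth limits the tRNAs, of which 4 could not be tested.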
